A study of Rattus norvegicus with 18 samples.

Results

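The macrophage genes described here were followed on whole-lung arrays in rats that breathed cigarette smoke: Lgals3, Mmp12, Spp1, Ms4a7, Adgre1 and Csf1r. They were chosen by symbol as genes that macrophages express, and they make up 6 of the 4616 genes named on the array. Each was read by 1 distinct probe with a value in all 18 samples, so all 6 passed the filter on missing values. Through the nose only, the animals breathed either diluted smoke or conditioned fresh air in 2 sessions of 1 h a day, with 30 min of fresh air between them, on 5 days a week. The smoke dose was 300 (low) or 600 (high) µg of total particulate matter (TPM) per litre, for 2, 7 or 13 weeks, and the lungs were taken 2, 6 or 20 hours later. Each of the 18 conditions is 1 sample, an equal pool of RNA from 4 exposed rats set against a pool from 4 rats kept in fresh air, and both doses at a time point share that air pool, so there are 9 air pools. Neither strain nor sex nor age of the rats is given in the labels.

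Every value below is a log2 ratio of smoke over air, so 1 is a doubling and -1 a halving. Smoke RNA always carried Cy5 and air RNA Cy3, with no swap of dyes named, so a constant dye effect would add to every value against air but cancels in the difference between doses. The 9 samples of a dose differ in weeks and hours, so the spread among them holds both time and noise, and a single condition has no replicate. A sample gave values for 3919 to 4583 genes, and its median over all deposited rows, unnamed and repeated ones included, lay between -0.01 and 0.01. The values are ratios, so neither a gene's level within the lung nor the presence of lung-defining genes can be read from them. In whole lung, fewer cells of a type and less RNA per cell cannot be told apart.

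Macrophages of the lung comprise alveolar macrophages, which lie in the air spaces and clear particles and surfactant, and interstitial macrophages and monocyte-derived cells of the tissue. Many macrophages, though not all to the same degree, depend for survival on the receptor encoded by Csf1r. Cells newly recruited or loaded with debris are known to raise genes such as Lgals3, Mmp12 and Spp1. Lgals3 encodes galectin-3, a sugar-binding lectin that gathers at damaged lysosomes. Mmp12 encodes macrophage elastase, a protease that cleaves elastin and is known from smoke-induced emphysema in mice. Spp1 encodes osteopontin, a secreted ligand of integrins and CD44. Ms4a7 encodes a membrane protein of the MS4A family found on macrophages, and Adgre1 encodes F4/80, an adhesion G protein-coupled receptor used to mark mouse macrophages.

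The array's gene identifiers for the members are NCBI Gene 83781 for Lgals3, 117033 for Mmp12, 25353 for Spp1, 293744 for Ms4a7, 316137 for Adgre1 and 307403 for Csf1r. For 5 of the 6, the transcript given in the array annotation is also a transcript of that gene in the rat gene table used for names. For 1, Ms4a7, the transcript was not found there and the name rests on the gene identifier alone. Which transcript its probe reads, and with it which gene, is uncertain.

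RefSeq promoter sequence on rat build GRCr8 was at hand for 5 members, and Lgals3 has no entry. The 250 bases before the start are shown for 4: Mmp12, Ms4a7, Adgre1 and Csf1r. Mmp12 was called higher only at the high dose, Ms4a7 values followed the hour, and Adgre1 was called lower at both doses. Csf1r was called lower only at the high dose, by a small amount. Each sequence is printed on the gene's own strand, and capitals mark the motif matches described after the sequences. Mmp12 lies on the plus strand at chr8:12866402-12866651, Ms4a7 on the minus strand at chr1:217409644-217409893, Adgre1 on the plus strand at chr9:2329190-2329439 and Csf1r on the plus strand at chr18:56834129-56834378.
Mmp12: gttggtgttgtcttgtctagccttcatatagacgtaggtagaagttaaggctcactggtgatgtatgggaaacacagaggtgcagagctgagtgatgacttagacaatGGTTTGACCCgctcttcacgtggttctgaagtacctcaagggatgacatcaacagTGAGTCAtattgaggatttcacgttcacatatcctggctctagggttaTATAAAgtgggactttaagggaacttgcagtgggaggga
Ms4a7: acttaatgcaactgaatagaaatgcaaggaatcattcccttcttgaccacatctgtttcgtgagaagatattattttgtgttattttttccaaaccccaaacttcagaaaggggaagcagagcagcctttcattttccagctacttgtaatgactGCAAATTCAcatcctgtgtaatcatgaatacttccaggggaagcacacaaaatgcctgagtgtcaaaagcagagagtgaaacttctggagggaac
Adgre1: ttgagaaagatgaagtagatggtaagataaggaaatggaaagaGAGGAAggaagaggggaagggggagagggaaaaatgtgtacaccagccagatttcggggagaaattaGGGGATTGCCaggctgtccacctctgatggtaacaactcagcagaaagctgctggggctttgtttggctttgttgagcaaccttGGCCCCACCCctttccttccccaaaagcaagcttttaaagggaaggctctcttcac
Csf1r: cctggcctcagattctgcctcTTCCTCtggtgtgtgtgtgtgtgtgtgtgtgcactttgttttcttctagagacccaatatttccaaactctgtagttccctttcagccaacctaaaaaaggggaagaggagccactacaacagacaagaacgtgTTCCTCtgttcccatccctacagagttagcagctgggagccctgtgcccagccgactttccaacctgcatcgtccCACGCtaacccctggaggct

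Motifs were searched on both strands as TGANTCA (AP-1), GAGGAA (PU.1 or another ETS factor), GCGTG (AhR, the receptor for smoke hydrocarbons), TGANNNNGC (antioxidant response element), the NF-kB consensus (3 G, any 5 bases, 2 C), TCACGTGA (CLEAR-type E-box of lysosomal genes) and TATAAA, the box of that name in core promoters. The AP-1 and antioxidant letters can share bases, but no matches overlapped in the 4 sequences. Mmp12 held TGAGTCA 87 bases before the start, a match to the AP-1 letters, which 6.34% of the 33469 promoters compared hold, and TATAAA 39 bases before it, found in 12.9%. It also held an NF-kB match 142 bases before the start (42.3% of promoters). The E-box letters, in 0.657% of promoters, matched in none of the 4. Ms4a7 held 1 match, GCAAATTCA, the antioxidant letters read on the other strand 95 bases before the start, which 34.7% of promoters hold. Adgre1 held GAGGAA 207 bases before the start and Csf1r held it on the other strand, as TTCCTC, 229 and 95 bases before, where 23.3% of promoters hold at least 1. Adgre1 also held NF-kB matches 140 and 56 bases before the start, and Csf1r an AhR match 20 bases before it (25.9% of promoters). A match describes letters and is not a binding site.

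**Figure D1:**
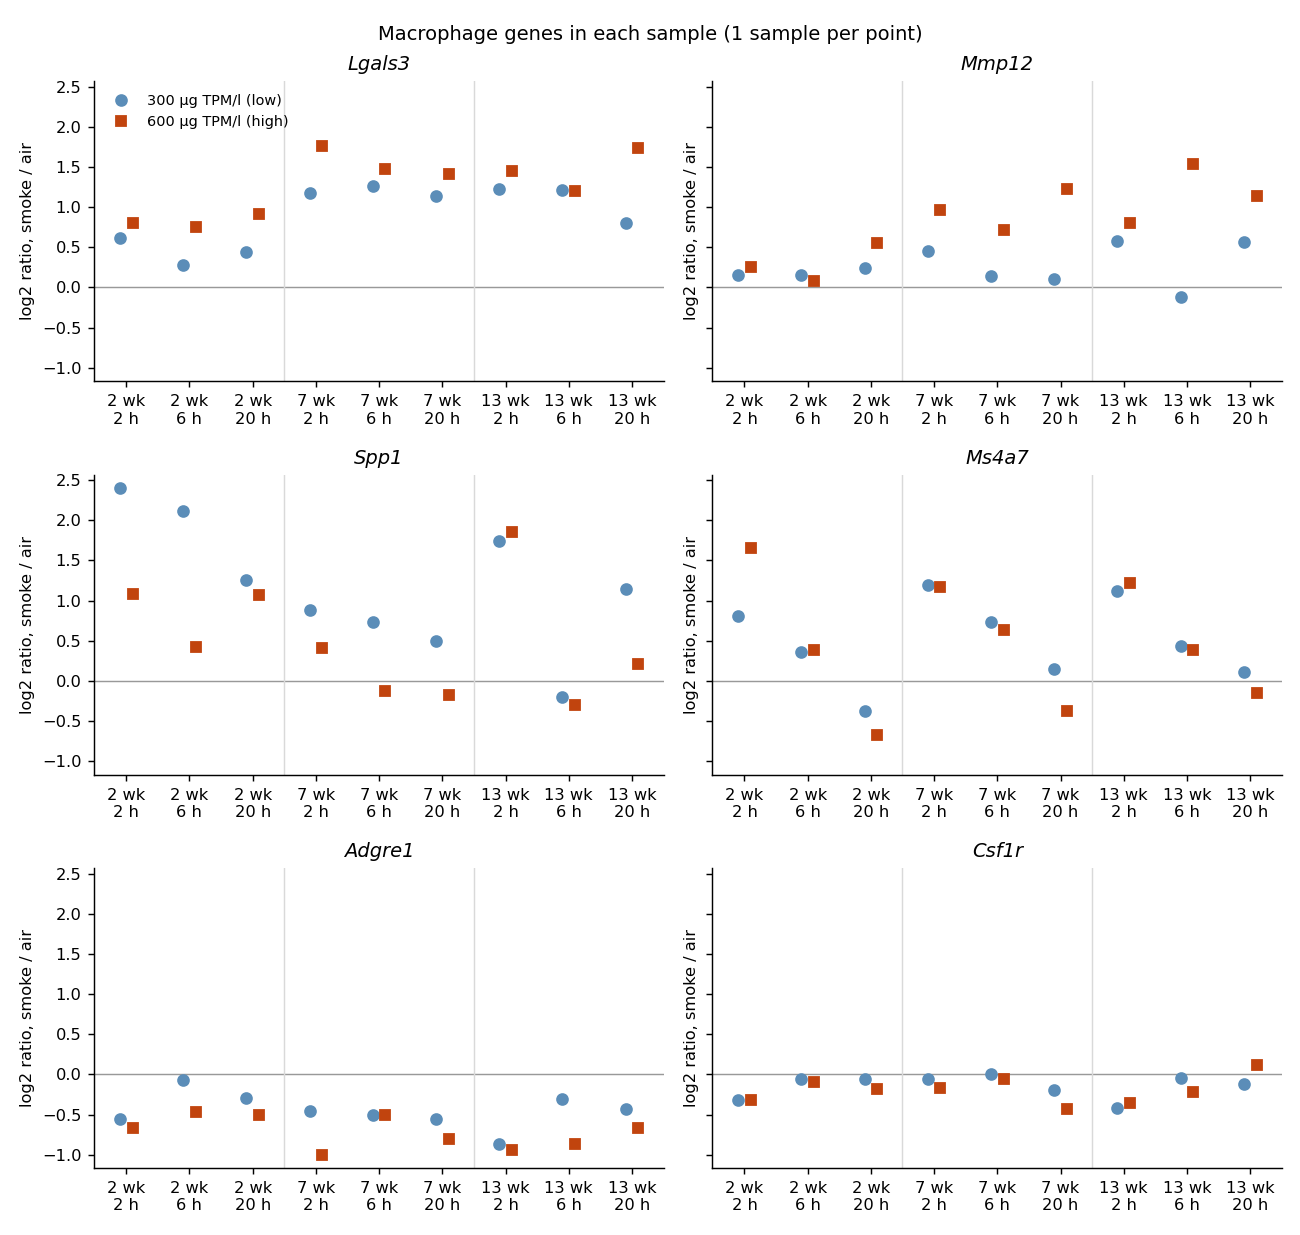
Log2 ratio of smoke over air for each of the 6 genes (panels) in all 18 samples, in order of weeks and hours along the x axis; circles are the low dose (300 µg TPM/l), squares the high dose (600 µg TPM/l), and each point is 1 sample. Lgals3 lies above 0 and Adgre1 below 0 in all 18 samples, Spp1 is mostly higher at the low dose, and Ms4a7 steps down from 2 to 20 hours at each week.

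With the high dose of smoke, Lgals3 and Mmp12 rose and Adgre1 and Csf1r fell, while Spp1 and Ms4a7 did not pass the test. The test was limma on the mean of 9 samples against 0, adjusted over all 4016 genes tested with a threshold of 0.05. Of the 6 members, 2 were called higher, where 9.56% of all genes were, and 2 lower, where 7.64% were. At the low dose Lgals3, Spp1 and Ms4a7 rose, 3 of 6 against 3.51% of all genes, and Adgre1 fell, 1 of 6 against 1.44%. The members were named with earlier results of these data in view, so these counts describe the 6 and do not test them as a group. The air pools are shared, so the comparisons of each dose with air are not independent.

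Lgals3, the lectin, was higher in every sample. At the high dose its log2 ratio ran from 0.75 through a median of 1.41 to 1.76, and at the low dose from 0.28 through 1.14 to 1.26, with no sample of either dose at or below 0. Both doses were low at 2 weeks and high at 7 and 13. The mean was 1.28 ± 0.10 (SE, n = 9; 2.42-fold; limma adjusted p = 2.84e-06) at the high dose and 0.91 ± 0.10 (1.87-fold; limma adjusted p = 0.000163) at the low dose. Only 7 of the 4016 genes had a higher mean than Lgals3 at the high dose, and 7 at the low dose.

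Mmp12, the elastase, was higher in all 9 high-dose samples, from 0.08 through a median of 0.80 to 1.54, and in 8 of 9 low-dose samples, from -0.12 through 0.15 to 0.58. The high dose was lowest at 2 weeks (0.08 to 0.55) and lay above the low-dose range at 7 and 13 weeks, where it ran from 0.71 to 1.54. Its mean was 0.81 ± 0.12 (SE, n = 9; 1.75-fold; limma adjusted p = 0.000591) at the high dose. At the low dose it was 0.25 ± 0.07, which did not pass (limma adjusted p = 0.0627); leaving out the 13 week 6 hour sample alone gave 0.30 with limma adjusted p = 0.0304.

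Spp1, the osteopontin gene, had its higher values at the low dose. At the low dose its values ran from -0.20 through a median of 1.14 to 2.40, above 0 in 8 of 9 samples, and at the high dose from -0.30 through 0.41 to 1.85, above 0 in 6 of 9. The largest value of all was the low dose at 2 weeks and 2 hours, a ratio of 5.28, and both doses were below 0 at 13 weeks and 6 hours. The mean was 1.17 ± 0.20 (SE, n = 9; 2.26-fold; limma adjusted p = 0.00378) at the low dose and 0.49 ± 0.18 (limma adjusted p = 0.0809) at the high dose. The low-dose call was lost without the 2 hour samples (0.93, limma adjusted p = 0.0796). It was also lost against a 1.2-fold change and in the exact sign-flip permutation test across all genes. The high dose passed without the 6 hour samples (0.74, limma adjusted p = 0.0404) and without the 13 week 6 hour sample (0.59, limma adjusted p = 0.0422).

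Ms4a7 ran from -0.67 through a median of 0.39 to 1.65 at the high dose, with 6 of 9 samples above 0, and from -0.38 through 0.43 to 1.19 at the low dose, with 8 of 9 above 0. At both doses the high values came at 2 hours and the low ones at 20 hours. The low-dose mean of 0.50 ± 0.13 (SE, n = 9; limma adjusted p = 0.0418) passed and the high-dose mean of 0.47 ± 0.20 (limma adjusted p = 0.123) did not. The low-dose call was lost in most settings. It did not hold with the air pool as a random block (limma adjusted p = 0.0832), nor without the 2 hour samples (0.23, limma adjusted p = 0.404). It was also lost without the 7 week, the 13 week or the 6 hour samples, and without any single 2 hour or 6 hour combination. The looser filter on missing values, the 1.2-fold threshold and the exact sign-flip permutation test across all genes lost it too. The high-dose mean was 0.91 without the 20 hour samples (limma adjusted p = 0.00459) and 0.61 without the 2 week 20 hour sample (limma adjusted p = 0.0372).

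Adgre1, the F4/80 gene, was below 0 in all 18 samples. At the high dose it ran from -1 through a median of -0.67 to -0.47, and at the low dose from -0.86 through -0.45 to -0.07. The mean was -0.72 ± 0.06 (SE, n = 9; 1.64-fold lower; limma adjusted p = 4.65e-06) at the high dose, the second-lowest of 4016 genes (1 gene was lower), and -0.45 ± 0.07 (1.36-fold lower; limma adjusted p = 0.0021) at the low dose. Without the 7 week samples the low-dose mean was -0.42 with limma adjusted p = 0.0527. The low-dose call was also lost against a 1.2-fold change and in the exact sign-flip permutation test across all genes.

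Csf1r, the receptor for a growth factor that sustains many macrophages, had the mean nearest to 0 of the 6. At the high dose it ran from -0.43 through a median of -0.18 to 0.12 and at the low dose from -0.42 through -0.06 to 0.01, with 8 of 9 samples below 0 at each. The high-dose mean was -0.19 ± 0.06 (SE, n = 9; 1.14-fold lower; limma adjusted p = 0.0377), and the low-dose mean -0.14 ± 0.06 did not pass (limma adjusted p = 0.179). The high-dose call was lost against a 1.2-fold change, in the exact sign-flip permutation test across all genes (adjusted p = 0.0889) and in most settings that left samples out, with limma adjusted p from 0.0551 without the 2 week 20 hour sample to 0.289 without the 2 hour samples. In all 9 samples of each dose, Adgre1 was lower than Csf1r, by 0.33 to 0.83 at the high dose and 0.01 to 0.52 at the low dose.

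A test free of the normal assumption, the exact sign-flip permutation test (two-sided, 9 samples), has a smallest possible p of 0.00391, reached by Lgals3 and Adgre1 at both doses and by Mmp12 at the high dose. Of the 18 such tests run (6 genes in 3 comparisons), these p are not adjusted. Run over all genes with adjustment, that test kept 3 members at the high dose (Lgals3, Mmp12 and Adgre1; 322 genes called). At the low dose it called no gene, where limma called 199 and 770 had an unadjusted limma p under 0.05. With that smallest p, adjustment over 4016 genes can pass a gene only when many genes reach it together. No single gene, Lgals3 and Adgre1 at their smallest p included, could have passed there by its own values alone.

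**Figure D2:**
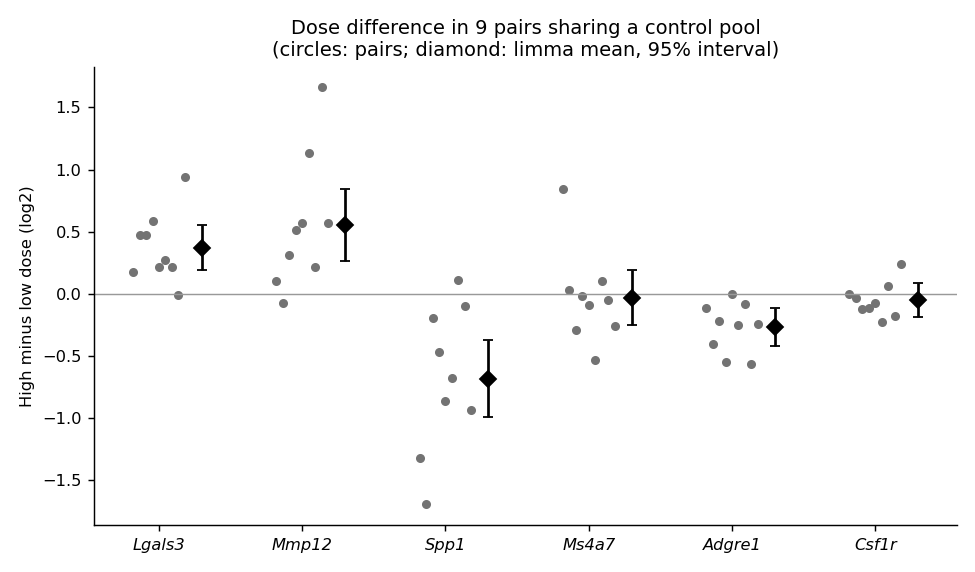
High minus low dose on the log2 scale for each gene; circles are the 9 pairs of samples that share an air pool, diamonds the limma mean with its 95% interval. Lgals3 and Mmp12 lie mostly above 0, Spp1 and Adgre1 mostly below, and Ms4a7 and Csf1r around 0; no mean passed the adjusted test.

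Setting the doses side by side, no member passed after adjustment: 0 of 6 members were called, where 0.174% of genes were (7 of 4016, with 398 at an unadjusted limma p under 0.05). Spp1 was lower at the high dose in 8 of 9 pairs, with differences from -1.69 through a median of -0.68 to 0.11 and a mean of -0.68 ± 0.15 (SE, n = 9; 95% interval -0.99 to -0.37; limma adjusted p = 0.0618). None of the 4016 genes had a lower mean difference. The Spp1 difference passed without the 2 week 20 hour pair (-0.74, limma adjusted p = 0.0498), without the 13 week 2 hour pair (-0.78, limma adjusted p = 0.0238) and when only genes measured in all 18 samples were tested (limma adjusted p = 0.0346).

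Mmp12 and Lgals3 were the members higher at the high dose. Mmp12 was higher in 8 of 9 pairs, from -0.07 through 0.51 to 1.66, with a mean of 0.56 ± 0.14 (limma adjusted p = 0.0968), and Lgals3 in 8 of 9, from -0.01 through 0.27 to 0.94, with a mean of 0.37 ± 0.09 (limma adjusted p = 0.0693). Lgals3 passed when only genes measured in all 18 samples were tested (limma adjusted p = 0.0469). Adgre1 was lower at the high dose in 8 pairs and equal in 1, from -0.56 to 0.00, with a mean of -0.27 ± 0.07 (limma adjusted p = 0.149). Neither Ms4a7 nor Csf1r passed: the difference was -0.03 ± 0.10 (95% interval -0.25 to 0.19; limma adjusted p = 0.959) for Ms4a7 and -0.05 ± 0.06 (95% interval -0.19 to 0.09; limma adjusted p = 0.881) for Csf1r. For both genes, the intervals leave room for differences of either sign.

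**Figure D3:**
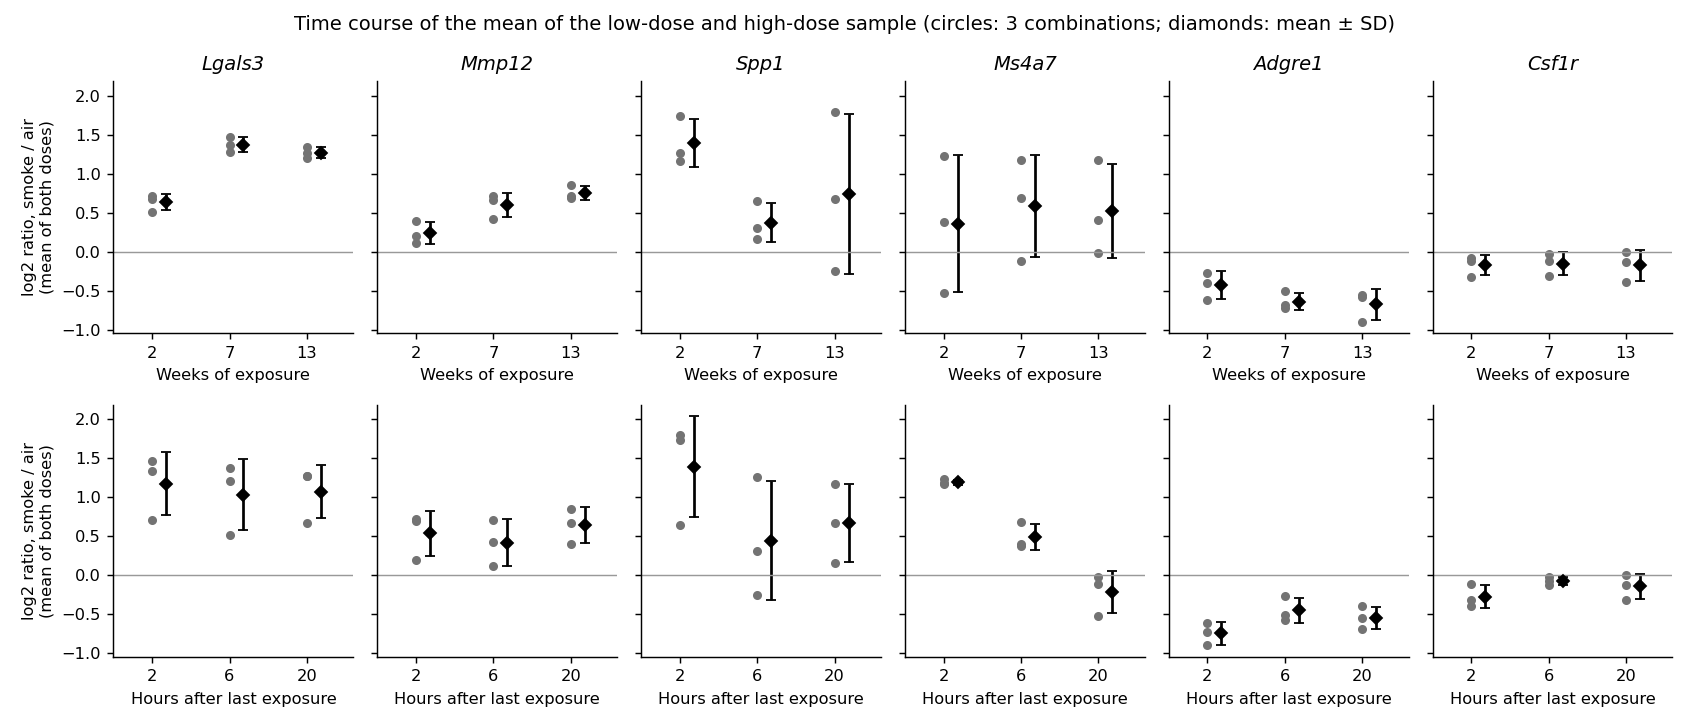
Log2 ratio averaged over both doses by weeks of exposure (top) and hours after the last session (bottom, equally spaced), for the 6 genes; circles are the 3 combinations of the other factor, diamonds their mean ± SD. Ms4a7 falls from 1.19 at 2 hours to -0.22 at 20 hours, and Lgals3 stands at 0.63 at 2 weeks, 1.37 at 7 weeks and 1.27 at 13 weeks.

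Over time, 1 member changed with the hour and 1 with the week. Both doses of a time point were averaged to 9 values, and each factor was tested by F in limma with the other as a covariate. Ms4a7 changed over hours (1 of 6; 1.6% of 3994 genes) and Lgals3 over weeks (1 of 6; 0.125% of genes, 5 of 3994). Ms4a7 stood at 1.19 ± 0.03 (SD, n = 3) at 2 hours, 0.49 ± 0.17 at 6 hours and -0.22 ± 0.27 at 20 hours (limma F adjusted p = 0.000222). All 3 steps passed: 6 minus 2 was -0.71 ± 0.12 (SE; limma adjusted p = 0.0176), 20 minus 6 -0.71 (limma adjusted p = 0.0206) and 20 minus 2 -1.41 (limma adjusted p = 0.000119). At every week and both doses, the 2 hour sample was the highest of its 3 and the 20 hour sample the lowest. Ms4a7 also passed over hours with each dose alone (limma F adjusted p = 0.00147 high, 0.00578 low). The target of its probe is uncertain, as stated above.

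Lgals3 stood at 0.63 ± 0.10 (SD, n = 3) at 2 weeks, 1.37 ± 0.10 at 7 weeks and 1.27 ± 0.07 at 13 weeks (limma F adjusted p = 0.0148). The 7 week mean was 0.74 ± 0.09 above that at 2 weeks (SE; limma adjusted p = 0.00819) and the 13 week mean 0.64 above it (limma adjusted p = 0.0243), while 13 minus 7 was -0.10 (limma adjusted p = 0.9996). The call was lost without any of the 2 week combinations (limma F adjusted p = 0.193, 0.164 and 0.115 without 2, 6 and 20 hours) and without the 7 week 6 hour one (limma F adjusted p = 0.0596), with 7 minus 2 between 0.69 and 0.78 each time. With each dose alone, where each value is 1 sample and not the mean of both doses, the call was lost. There 7 minus 2 was 0.73 (high, limma F adjusted p = 0.446) and 0.74 (low, limma F adjusted p = 0.465). The neutrophil markers S100a8 and S100a9, which encode the calprotectin subunits, are also among the 5 genes called over weeks (limma F adjusted p = 0.000112 for each). Their 7 minus 2 week steps were 0.995 and 1.57. Unlike Lgals3, both rose again from 7 to 13 weeks, by 0.77 and 0.955. Of the 6 neutrophil markers, only these 2 were called over weeks. Sample medians of the 6 ran from -0.84 to 0.20 at 2 weeks, -0.12 to 0.40 at 7 and 0.31 to 0.82 at 13. For 18 genes of alveolar and lipid-loaded macrophages, 0 of them called over weeks, the middle sample median was 0.305 at 2 weeks, 0.5625 at 7 and 0.5125 at 13. The part of either cell type in the Lgals3 result was not tested.

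No other member passed over time. Mmp12 stood at 0.24 at 2 weeks, 0.60 at 7 and 0.75 at 13 (limma F adjusted p = 0.206). Spp1 stood at 1.39 at 2 hours, 0.44 at 6 and 0.67 at 20 (limma F adjusted p = 0.139), and at 1.39, 0.37 and 0.74 at 2, 7 and 13 weeks (limma F adjusted p = 0.43). Without the 13 week 6 hour combination, in which Spp1 was below 0 at both doses, Spp1 passed over hours (limma F adjusted p = 0.0259) and over weeks (limma F adjusted p = 0.00747). Adgre1 was lowest at 2 hours, -0.75 against -0.45 at 6 and -0.55 at 20 (limma F adjusted p = 0.269), and Csf1r likewise, -0.28 against -0.08 and -0.15 (limma F adjusted p = 0.579). Neither passed over weeks (limma F adjusted p = 0.862 for Adgre1, 0.996 for Csf1r). Whether the dose difference depended on hours or weeks gave 0 called members and 0% of genes, with 141 and 177 genes at an unadjusted limma p under 0.05. For Ms4a7, the dose difference at 20 hours minus that at 2 hours was -0.67 (limma F adjusted p = 0.9997).

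Members were then set against each other across the 18 samples. Pearson correlations between members, given as descriptions since samples share air pools, doses and times, ran from -0.695 (Lgals3 with Adgre1) to 0.59 (Lgals3 with Mmp12). Mmp12 and Adgre1 had r = -0.68, Adgre1 and Csf1r 0.58, and Lgals3 and Spp1 -0.56. Ms4a7 was between -0.34 and 0.27 with every other member.

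**Figure D4:**
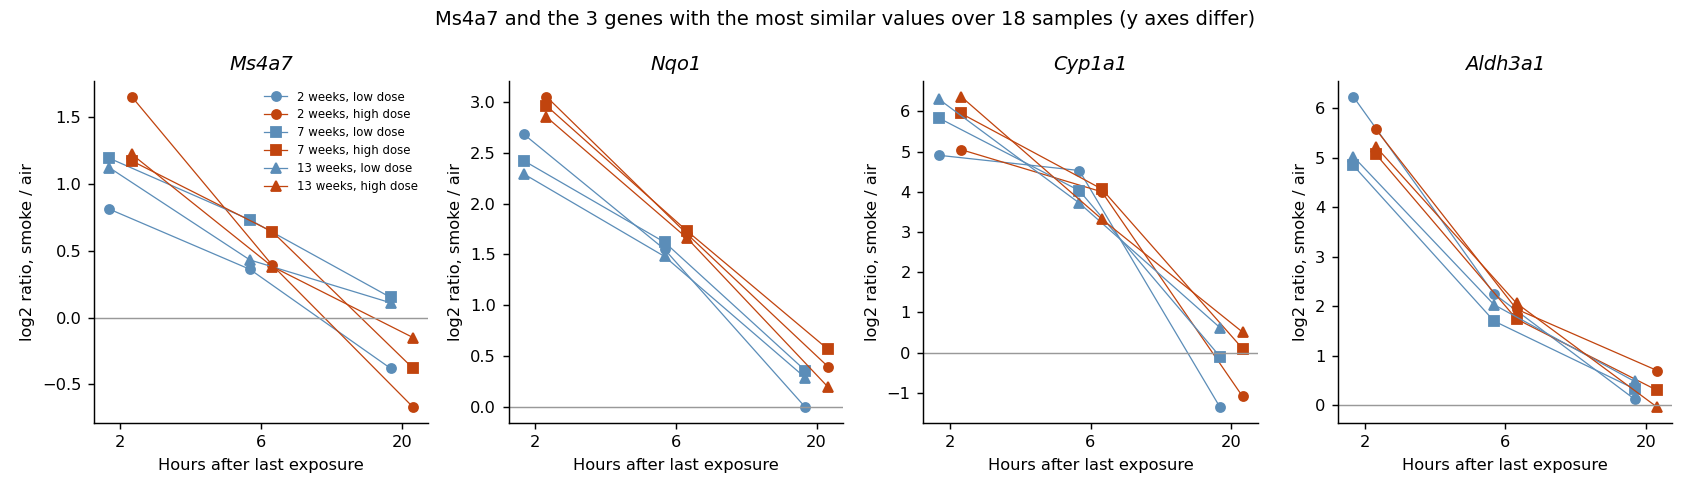
Log2 ratio of smoke over air for Ms4a7 and the 3 genes with the most similar values, by hours after the last session (equally spaced); circles, squares and triangles are 2, 7 and 13 weeks, blue the low and orange the high dose, each point 1 sample, and y axes differ. All 4 genes are highest at 2 hours and lowest at 20 hours in each series of points, with Cyp1a1 spanning from 6.37 to -1.36.

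Among 3559 genes with a value in every sample, those most like Ms4a7 were Nqo1 (r = 0.924), a quinone reductase of the antioxidant response, Cyp1a1 (r = 0.911), the cytochrome P450 induced through AhR, and Aldh3a1 (r = 0.878), an aldehyde dehydrogenase. Nqo1 stood at 2.71 at 2 hours, 1.62 at 6 and 0.30 at 20, and Cyp1a1 at 5.74, 3.95 and -0.22, each the mean of 6 samples. At 20 hours Ms4a7 was below 0 in all 3 high-dose samples (-0.67, -0.38 and -0.15) and at -0.38, 0.15 and 0.11 at the low dose. Nqo1 was at or above 0 in all 6 samples of that hour. Cyp1a1 ran from -1.36 to 0.62 there and Aldh3a1 from -0.04 to 0.70.

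Lgals3 was most like Lcn2 (r = 0.885), which encodes the secreted iron-carrier protein lipocalin-2, Cd63 (r = 0.868), a lysosomal membrane protein, and Tnfsf13 (r = 0.863), the B cell factor APRIL. Lcn2 stood at 1.62 at 2 weeks, 2.57 at 7 and 2.33 at 13, and passed over weeks (limma F adjusted p = 0.0299). Mmp12 was most like the inhibitory Fc receptor gene Fcgr2b (r = 0.803), the complement regulator gene C4bpb (r = 0.761) and Cd68 (r = 0.735), a lysosomal protein of macrophages. Adgre1 was most like Cdc42bpa (r = 0.858), Ptprc (r = 0.798), which encodes the leukocyte antigen CD45, and Cd2 (r = 0.781) of T and NK cells. Spp1 was most like Apc (r = 0.73), Dusp1 (r = 0.725) and Nherf2 (r = 0.713), and Csf1r most like Cacng8 (r = 0.776), Mest (r = 0.759) and Iqgap1 (r = 0.743). These genes were picked as the highest of 3559, so their r is high by choice.

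**Figure D5:**
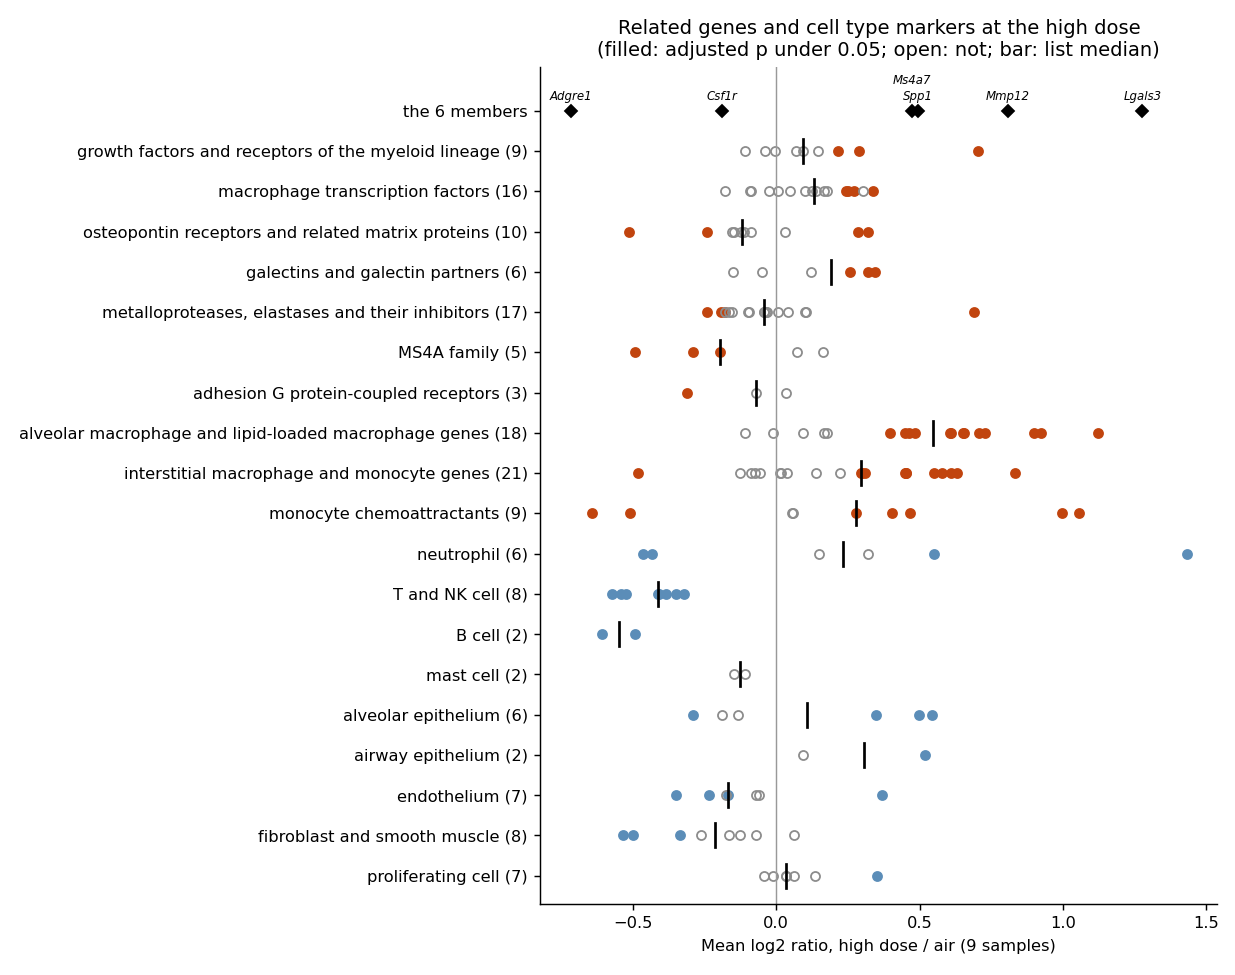
Mean log2 ratio of the high dose over air (9 samples) for the 6 members (diamonds), 10 lists of related genes (orange when called) and 9 lists of cell type markers (blue when called); open circles did not pass, bars are list medians and numbers in brackets are genes tested. The alveolar macrophage list has 13 of 18 genes filled to the right of 0 and the T and NK cell list 8 of 8 to the left.

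Genes of the same pathways showed where the members stood among their kin. Over all genes tested, 9.56% were called higher and 7.64% lower at the high dose, and 3.51% and 1.44% at the low dose. Of 18 genes of alveolar and lipid-loaded macrophages, 13 rose and 0 fell at the high dose (median 0.55, against 0.003 over all genes tested), and 11 rose and 0 fell at the low dose (median 0.38, against -0.002). Cd68 stood at 1.12 ± 0.10 (SE; limma adjusted p = 4.65e-06), Ctsd, a lysosomal protease, at 0.92 ± 0.09 (limma adjusted p = 1.91e-05) and Fabp5, a fatty acid carrier, at 0.90 ± 0.10 (limma adjusted p = 3.75e-05). Sample medians of this list were above 0 in all 18 samples, from 0.12 to 0.53 at the low dose and 0.36 to 0.72 at the high dose. Of 21 interstitial macrophage and monocyte genes, 11 rose and 1 fell at the high dose (median 0.30) and 9 rose and 0 fell at the low dose (median 0.17), with Fcgr2a, an Fc receptor, at 0.83 ± 0.12 (limma adjusted p = 0.000362), Cd14, the lipopolysaccharide co-receptor, at 0.63 ± 0.08 (limma adjusted p = 0.000191) and C1qa of complement at 0.61 ± 0.09 (limma adjusted p = 0.000342). S100a4 fell, by 0.48. Adgre1 and Csf1r thus lay on the other side of 0 from most genes of either list. Over hours, where Ms4a7 and 1.6% of all genes were called, 0 of the 18 genes and 1 of the 21 (Cd14) were.

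The relatives of Csf1r came next, to be read beside the 9.56% of all genes called higher and 7.64% called lower at the high dose. Of 9 growth factor and receptor genes of the myeloid lineage, 3 rose and 0 fell at the high dose: Csf2, the growth factor GM-CSF, at 0.71 ± 0.10 (limma adjusted p = 0.000212), its receptor Csf2ra at 0.29 ± 0.05 (limma adjusted p = 0.00231) and Flt3 at 0.22 ± 0.07 (limma adjusted p = 0.0409). Csf1, the ligand of Csf1r, stood at 0.15 ± 0.07 (limma adjusted p = 0.163). Of 16 macrophage transcription factors, 4 rose and 0 fell, with Pparg, the regulator of alveolar macrophage identity, at 0.34 ± 0.07 (limma adjusted p = 0.00503), Fosl2 at 0.27 ± 0.06 (limma adjusted p = 0.011) and Klf4 at 0.25 ± 0.07 (limma adjusted p = 0.0257). Of 9 monocyte chemoattractants, 5 rose and 2 fell, with Ccl9 at 1.06 ± 0.09 (limma adjusted p = 2.84e-06), Ccl3 at 1.00 ± 0.08 (limma adjusted p = 2.84e-06) and Cxcl14 at -0.64 ± 0.12 (limma adjusted p = 0.0034).

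Partners of the other members were mixed. Over all genes, 9.56% were called higher and 7.64% lower at the high dose. A few calls in a short list can lie near those shares. Of 6 galectins and partners, 3 rose and 0 fell: Lgals3bp, a galectin-3 ligand, at 0.35 ± 0.08 (limma adjusted p = 0.00766), and the lysosomal proteins Lamp2 at 0.32 ± 0.07 (limma adjusted p = 0.00445) and Lamp1 at 0.26 ± 0.06 (limma adjusted p = 0.00631). Of 17 metalloproteases, elastases and inhibitors, 1 rose and 3 fell: Plaur, the urokinase receptor, at 0.69 ± 0.10 (limma adjusted p = 0.000381), Mmp23 at -0.24 ± 0.07 (limma adjusted p = 0.0404), A2m, a broad protease inhibitor, at -0.19 ± 0.05 (limma adjusted p = 0.0257) and Mmp16 at -0.18 ± 0.05 (limma adjusted p = 0.0321). Of 10 osteopontin receptors and matrix genes, 2 rose and 2 fell, with Cd44 at 0.29 ± 0.05 (limma adjusted p = 0.00279), the matrix protein gene Mgp at 0.32 ± 0.09 (limma adjusted p = 0.0311) and the integrin subunit Itga4 at -0.51 ± 0.10 (limma adjusted p = 0.00272). Of 5 other MS4A genes, 0 rose and 3 fell: Ms4a1, the B cell antigen CD20, at -0.49 ± 0.11 (limma adjusted p = 0.00577), Ms4a6bl1 at -0.29 and Ms4a4c at -0.20. Of 3 other adhesion receptors, Adgre5, which encodes CD97 of leukocytes, fell to -0.31 ± 0.07 (limma adjusted p = 0.0066) and 2 did not pass.

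Markers of other cell types were read in the same samples. Their counts stand beside 9.56% of all genes called higher and 7.64% called lower at the high dose. For the low dose, 1.44% of all genes were called lower. A few calls in a short list can lie near those shares. At the high dose, 8 of 8 T and NK cell markers fell (median -0.41), and their sample medians ran from -0.91 to -0.16, against -0.53 to 0.26 at the low dose, where 1 of 8 fell (median -0.10). Of 2 B cell markers, 2 fell at the high dose. Of 6 neutrophil markers, 2 rose and 2 fell at the high dose. Over weeks 2 of them changed, against 0.125% of all genes, and over hours 3 (S100a8, S100a9 and Fcnb), against 1.6%. Of 8 fibroblast and smooth muscle markers, 0 rose and 3 fell at the high dose. Of 6 alveolar epithelium markers, 3 rose and 1 fell, of 7 endothelium markers 1 rose and 3 fell, of 7 proliferating cell markers 1 rose, of 2 airway markers 1 rose, and of 2 mast cell markers none passed. The part of these cell types in the values of Adgre1, Csf1r or any other member was not tested.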

How the data were processed

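The authors deposited 1 table of log2 ratios, smoke (Cy5) over air (Cy3), for 18 samples of whole rat lung; per the labels' protocols, RNA was amplified linearly and each labelled sample went to 2 arrays. On a log2 scale, 100% of the 257 deposited values below -1 turn back into ratios with 2 decimals. The scanner and the authors' filtering and normalization are not stated in the labels; signal intensities were not used, and direction is taken from the channel labels. Of 9658 rows with a symbol, 9614 matched the gene table, and rows of 1 gene sharing values were merged to 4780 probes and 4616 genes (133 with several probes, averaged).

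A gene was tested if at least 6 of 9 combinations had it at both doses (4016; 3994 over time), with limma 3.58.1 in R 4.3.3, two-sided, adjusted by Benjamini-Hochberg over all genes, threshold 0.05. Fits were tested on simulated data. Python 3.11.15 with numpy 2.4.6, pandas 2.3.3 and matplotlib 3.10.9 did the rest; the block used statmod 1.5.0. Members and lists were chosen with earlier results of these data known. In each list, up to 3 genes past the threshold with the largest high-dose change are named, or up to 2 as values; Csf1, Mmp16 and S100a4 were added after their values were seen. Alternatives were the filter, single probes, centring, a robust prior, the median, samples left out, each dose alone, the air pool as a random block, treat at 1.2-fold and the sign-flip test. P-values measure only the spread between these pooled samples.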

Additional observations from a re-analysis of the deposited data

Results flagged for a closer look

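Lgals3 differed between weeks: the mean of both doses was 0.74 higher (log2) at 7 than at 2 weeks, by the limma contrast over all genes. Ms4a7, whose probe target is uncertain, differed between hours, -1.41 from 2 to 20 hours by the same kind of test. Within the high dose, all 3 Ms4a7 samples at 2 hours and all 3 at 6 hours were above air, and all 3 at 20 hours below it, with mean differences of -1.75 (20 minus 2) and -0.87 (20 minus 6). With the high dose alone, Ms4a7 passed over hours (limma F adjusted p = 0.00147).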

How the results depend on the processing

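The high-dose count of 4 members was 3 or 4 with samples left out, 3 against a 1.2-fold change and 3 with the exact sign-flip permutation test across all genes (322 genes called), the last 2 settings without Csf1r. A count of 4 with samples left out was not always the same 4, and Csf1r lost its call in most of those settings. Spp1 was called without the 6 hour samples and without the 13 week 6 hour sample. Ms4a7 was called without the 20 hour samples and without the 2 week 20 hour sample. The low-dose count of 4 was 2 to 4 with samples left out (2 without the 7 week and without the 2 hour samples). It was 1 (Lgals3) against a 1.2-fold change and 0 with the exact sign-flip permutation test across all genes, which called no gene there. The smallest p of that test is too large for a gene to pass after adjustment unless many genes reach it. Between doses, 0 members became 2 (Lgals3 and Spp1) among genes with all 18 values, and 0 to 1 with samples left out. Over hours, the count was 1 to 2. Over weeks, it was 0 to 2, and 0 with the high dose alone and 0 with the low dose alone. Some of these settings also hold fewer samples or genes, and the cause of each move was not tested. Signs turned for differences near 0: Ms4a7 high minus low ran from -0.20 to 0.14, and Csf1r 13 minus 7 weeks from -0.16 to 0.088 with samples left out, and was 0.067 with the high dose alone. Of 612 settings tried on single members, 551 were unchanged, 41 lost the call, 11 gained it and 9 changed sign. Unchanged means the same direction and side of the threshold. For the median, which has no p, it means the same sign and a distance from the mean under 1 SD of the samples. Ratios without signal limit what can be said of weak probes.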
